A study of Homo sapiens with 8 samples.

Results

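The heat shock and cytosolic chaperone genes described here are 10 genes chosen by symbol: HSPA1A, HSPA1B, HSPA8, HSP90AA1, HSP90AB1, HSPH1, DNAJB1, HSPB1, BAG3 and HSF1. All 10 were among the 58735 genes in the deposited tables, and all 10 passed the filter on low counts that left 18242 genes for testing. The cells were BEAS-2B, an immortalised human bronchial epithelial line, grown on collagen-coated inserts. They were exposed at the air-liquid interface for 2 h to clean air (CA) or to air with 1 ppm formaldehyde (FA). RNA was taken after 6 h of recovery. From each exposure the rRNA-depleted RNA was divided. One portion was sequenced as input RNA (IN), and the other was pulled down with an antibody against 8-oxoguanine, the main oxidised form of guanine in RNA, and sequenced as immunoprecipitated RNA (IP). This gave 4 groups (CA_IN, FA_IN, CA_IP and FA_IP) of 2 libraries each, numbered 1 and 3, from biological duplicates of 1 cell line. Genotype was the same in all groups, and the input and IP libraries of 1 exposure with the same number came from 1 RNA pool. The libraries held 26152651 to 45144392 expected counts for input RNA and 16883500 to 23658012 for IP RNA.

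Chaperones bind unfolded or partly folded proteins and keep them from aggregating. HSP70 proteins do so in cycles of ATP hydrolysis driven by J-domain proteins and reset by nucleotide exchange factors, HSP90 proteins act later on signalling proteins, and small heat shock proteins hold unfolded clients without ATP. HSF1 is the transcription factor that switches on many of these genes in response to heat and to agents that damage proteins, and formaldehyde is a reactive aldehyde that crosslinks proteins. HSF1 recognises heat shock elements, inverted repeats of the unit GAA spaced by 2 bases.

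Promoter windows, 250 bases before to 50 bases after the annotated start, were taken from RefSeq (GRCh38.p14) for 9 of the 10 genes, some with several start sites, giving 14 windows. They were searched on both strands for a pair of heat shock units, GAANNTTC or TTCNNGAA, and for 3 units in a row, GAANNTTCNNGAA or TTCNNGAANNTTC, which contains the pair. A pair was found in 8 of the 14 windows, belonging to 7 genes, against 13.5% of all 35116 windows in the table. The run of 3 units was found in 3 windows, of HSPA8, HSP90AA1 and HSP90AB1, against 0.49% of all windows. The windows shown are those of the genes that the results below turn on, read 5′ to 3′ on the strand of the gene, with the matched elements in capitals. HSPA1A lies on the plus strand at chr6:31815293-31815592, HSPA1B on the plus strand at chr6:31827488-31827787, HSPA8 on the minus strand at chr11:123062087-123062386 and HSPB1 on the plus strand at chr7:76302423-76302722.
HSPA1A: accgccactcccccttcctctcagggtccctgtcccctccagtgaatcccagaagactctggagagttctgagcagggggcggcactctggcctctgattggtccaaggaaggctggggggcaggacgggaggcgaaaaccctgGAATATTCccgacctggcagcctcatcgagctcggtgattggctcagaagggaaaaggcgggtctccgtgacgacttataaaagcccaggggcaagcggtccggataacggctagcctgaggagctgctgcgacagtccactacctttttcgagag
HSPA1B: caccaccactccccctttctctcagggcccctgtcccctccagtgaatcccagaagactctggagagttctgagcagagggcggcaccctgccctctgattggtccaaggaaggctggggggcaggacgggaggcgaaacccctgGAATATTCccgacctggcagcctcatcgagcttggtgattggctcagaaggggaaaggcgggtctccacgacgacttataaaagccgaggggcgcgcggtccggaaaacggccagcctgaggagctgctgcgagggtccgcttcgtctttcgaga
HSPA8: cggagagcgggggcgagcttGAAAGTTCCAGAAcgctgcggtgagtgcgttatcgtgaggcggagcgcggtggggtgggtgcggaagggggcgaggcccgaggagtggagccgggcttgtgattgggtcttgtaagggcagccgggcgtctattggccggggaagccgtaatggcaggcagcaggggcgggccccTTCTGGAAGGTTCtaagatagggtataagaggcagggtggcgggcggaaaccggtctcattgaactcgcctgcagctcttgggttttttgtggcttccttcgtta
HSPB1: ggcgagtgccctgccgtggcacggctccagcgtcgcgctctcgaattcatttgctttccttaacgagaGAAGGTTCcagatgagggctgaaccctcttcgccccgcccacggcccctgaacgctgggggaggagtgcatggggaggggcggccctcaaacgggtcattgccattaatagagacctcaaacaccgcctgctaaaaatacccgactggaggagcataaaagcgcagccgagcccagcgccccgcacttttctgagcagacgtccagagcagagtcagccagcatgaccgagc
The HSPA1A and HSPA1B windows were identical at 277 of 299 aligned bases (92.6%) and shared their single pair. HSPA8 had 2 runs of 3 units, and HSPB1 had 1 pair. A match describes the letters and does not show that a factor bound there.

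In GENCODE 44 (GRCh38) all 10 are protein-coding genes. HSPA1A (ENSG00000204389, chr6:31815543-31817946) and HSPA1B (ENSG00000204388, chr6:31827738-31830254) are neighbours on the plus strand. On the plus strand also lie HSP90AB1 (ENSG00000096384, chr6:44246166-44253888), HSPB1 (ENSG00000106211, chr7:76302673-76304295) and BAG3 (ENSG00000151929, chr10:119651380-119677819). On the minus strand lie HSPA8 (ENSG00000109971, chr11:123057489-123063230), HSP90AA1 (ENSG00000080824, chr14:102080742-102139699), HSPH1 (ENSG00000120694, chr13:31134973-31162388) and DNAJB1 (ENSG00000132002, chr19:14514769-14560391). HSF1 is ENSG00000185122. Levels were compared between genes as TPM (the unit of RSEM that divides by transcript length and by the library total) within the 4 input libraries. HSPA8, the constitutive cytosolic HSP70 (HSC70), was the most abundant member at 489 to 749 TPM and ranked 113 of the 18242 tested genes. HSP90AB1, the constitutive HSP90β, followed at 215 to 284 TPM, and HSP90AA1, the inducible HSP90α, lay just below at 154 to 212 TPM. The heat-inducible HSP70 genes HSPA1A and HSPA1B were at 71.1 to 107 and 69.5 to 92.2 TPM, ranges that overlapped. HSPH1, an HSP110 exchange factor for HSP70, was at 20.3 to 26.2 TPM. HSPB1, the small heat shock protein HSP27, was at 20.4 to 29.0 TPM and DNAJB1, the J-domain partner of inducible HSP70, at 16.5 to 21.5 TPM. The ranges of HSPH1 and HSPB1 overlapped each other and that of DNAJB1. HSF1 was at 10.1 to 11.3 TPM, and BAG3, an HSP70 exchange factor that links it to autophagy, was lowest at 4.29 to 5.31 TPM.

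The first comparison asked which of these genes differed between formaldehyde-exposed and clean-air input RNA. None of the 10 passed the test at an adjusted p under 0.05 by edgeR's quasi-likelihood test without a block, and none by DESeq2. At an unadjusted p under 0.05, 1 member (HSPB1) was found by either tool. Across all genes 1 of 18242 was called, a share of 0.00548%, with 611 at an unadjusted p under 0.05. With the replicate number as a block, edgeR called 1 of the 10 (HSPB1, higher), against 258 of 18242 genes (1.41%). Of these 258, 14 were higher and 244 lower. In that fit 4 of the 10 had an unadjusted p under 0.05, against 2655 genes. The median log2 fold change of the 10 genes was 0.07, beside 0.02 over all genes tested, and 5 of the 10 were higher after formaldehyde at both library numbers, as were 33.5% of all genes.

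HSPB1 had the largest difference among the members. In CPM (counts scaled to the library total after TMM normalisation, the trimmed mean of M-values) its level was 39.6 and 41.0 in the 2 CA_IN libraries and 51.0 and 55.9 in the 2 FA_IN libraries. Both formaldehyde libraries lay above both clean-air libraries. The fold change was 1.33 (log2 0.41 ± 0.13, SE, n = 2 per group), with an unadjusted p of 0.0144 and an adjusted p of 0.945 by edgeR's quasi-likelihood test. With the replicate number as a block it was 0.40 ± 0.08 (SE, adjusted p = 0.0373, edgeR), the lowest of the adjusted p over 19 alternative settings, which reached 1.0.

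The inducible HSP70 genes came next, but their groups were not separate. HSPA1A was at 431.5 and 554.6 CPM in CA_IN and at 552.9 and 656.1 CPM in FA_IN, so that the higher clean-air library lay just above the lower formaldehyde library. HSPA1B was at 440.7 and 533.7 CPM in CA_IN and at 513.6 and 589.0 CPM in FA_IN, and its groups overlapped. The log2 fold changes were 0.29 ± 0.21 (SE, adjusted p = 0.945, edgeR) for HSPA1A and 0.18 ± 0.19 (SE, adjusted p = 0.945, edgeR) for HSPA1B. At library numbers 1 and 3, formaldehyde was higher by 0.36 and 0.24 (HSPA1A) and by 0.22 and 0.14 (HSPA1B) on the log2 scale. With the number as a block HSPA1A had 0.30 ± 0.07 (SE, adjusted p = 0.0595, edgeR) and HSPA1B 0.18 ± 0.08 (SE, adjusted p = 0.295, edgeR). Neither was called. The split between this pair is uncertain: of the 75-base windows of the main HSPA1A transcript, 73.8% occur unchanged in that of HSPA1B. Most single reads of this length therefore cannot tell them apart. The libraries were paired-end, and the share of read pairs that cannot was not computed. Taken as 1 feature, the pair had 872.2 and 1088 CPM in CA_IN and 1067 and 1245 CPM in FA_IN. Its log2 fold change was 0.24 ± 0.20 (SE, adjusted p = 0.945, edgeR).

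HSF1 was at 45.8 and 45.6 CPM in CA_IN and at 57.7 and 49.0 CPM in FA_IN. Both formaldehyde libraries were above both clean-air ones, by a log2 fold change of 0.22 ± 0.11 (SE, unadjusted p = 0.0804, adjusted p = 0.945, edgeR). HSPA8 was at 2451 and 3224 CPM in CA_IN and at 2499 and 3435 CPM in FA_IN. The difference of HSPA8 between its 2 libraries within a group exceeded the difference between the groups. HSP90AA1, HSP90AB1, HSPH1, DNAJB1 and BAG3 had log2 fold changes between -0.00 and 0.07 with SEs of 0.10 to 0.11. None of these 5 values exceeded its SE.

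**Figure D1:**
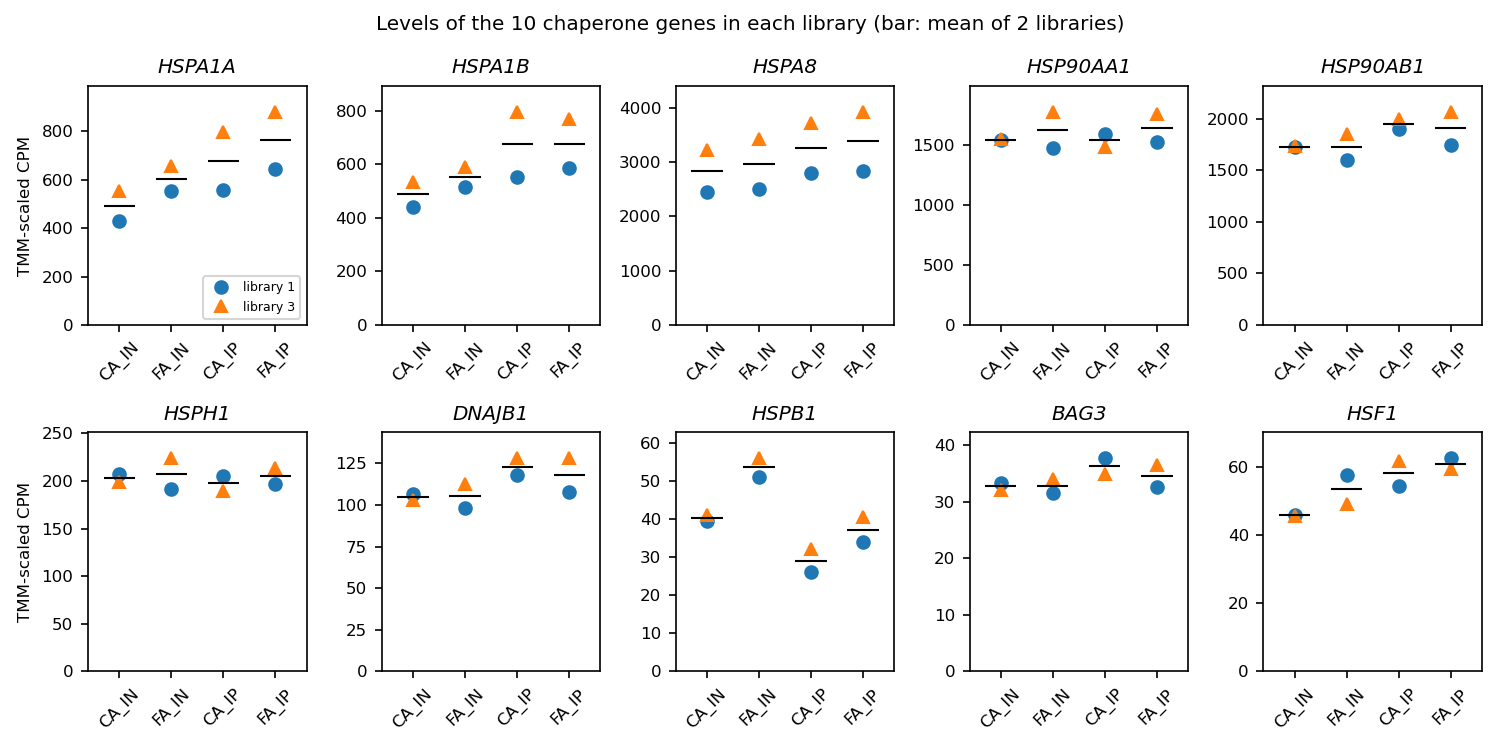
Level of each of the 10 genes (vertical axis, CPM scaled by TMM, from 0) in the 4 groups (horizontal axis), with circles for the libraries numbered 1, triangles for those numbered 3 and bars for the mean of 2. HSPB1 was at 39.6 and 41.0 CPM in CA_IN and at 51.0 and 55.9 CPM in FA_IN, and the triangles of HSPA1A, HSPA1B and HSPA8 lie above the circles in every group.

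The other chaperone genes gave no call in this comparison without a block. Of 73 further genes in 10 lists (other HSP70 and HSP110 proteins, other J-domain proteins, HSP90 and HSP70 co-chaperones, other small heat shock proteins, heat shock factors and their binding protein, subunits of the TRiC chaperonin and of prefoldin, mitochondrial chaperones, and heat-inducible genes outside the 10), 67 were tested. None was called by edgeR without a block, 3 had an unadjusted p under 0.05, and their median log2 fold change was 0.09. The 8 TRiC subunits, which fold actin and tubulin, lay between 0.088 and 0.135 on the log2 scale. The 6 prefoldin subunits, which hand clients to TRiC, lay between 0.038 and 0.205. The 20 tested heat-inducible genes lay between -0.31 and 1.41 with a median of 0.06. Among the small heat shock proteins other than HSPB1, 2 of 7 were tested: CRYAB, the αB-crystallin gene, had at most 5.0 expected counts in any library and HSPB3 had 0.0 in all 8.

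HSPA6, the strictly stress-inducible HSP70, was singled out after its values were seen because it had the largest fold change of the 67. The clean-air input libraries held 198.7 and 959.7 expected counts of it and the formaldehyde input libraries 834.1 and 1613.6, or 4.57, 26.2, 34.7 and 46.7 CPM. Clean-air library 1 stood far below the other 3, and both formaldehyde libraries were above both clean-air ones. The log2 fold change was 1.41 ± 0.80 (SE, n = 2 per group, adjusted p = 0.945, edgeR) with a range of adjusted p from 3.92e-15, with no filter on low counts, to 1.0. With the replicate number as a block it was 1.71 ± 0.39 (SE, adjusted p = 0.0484, edgeR), and DNAJA4, a J-domain protein, was also called higher in that fit. Without clean-air input library 1 the log2 fold change was 0.63 (adjusted p = 1.0, edgeR), and without clean-air input library 3 it was 3.15 (adjusted p = 0.728, edgeR). HSPA6 shares 35.3% of its 75-base windows with HSPA7, a pseudogene that had 2.3 to 43.4 expected counts per library, so a few of its reads may be misplaced.

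The libraries numbered 3 differed from those numbered 1 in several chaperone genes, a description added after the values were seen. HSPA8 was higher in library 3 in all 4 groups, by 0.40 (CA_IN), 0.46 (FA_IN), 0.42 (CA_IP) and 0.47 (FA_IP) on the log2 scale. Only 357 of 18242 genes (1.96%) were at least 0.40 higher in library 3 in every group as HSPA8 was. HSPA1A was higher by 0.25 to 0.52 and HSPA1B by 0.20 to 0.53. In the same libraries HSPA6 was higher by 2.50 in CA_IN and 2.40 in CA_IP, and by 0.43 and 0.52 in the formaldehyde groups. In all, 5 of the 10 genes, with HSPA1A and HSPA1B counted as 2, were higher in library 3 in all 4 groups. Of all genes 18.2% were higher and 21.1% lower in all 4 groups. HSP90AA1, HSPH1, DNAJB1, BAG3 and HSF1 had both signs across the groups. Since input and IP libraries of a number come from the same RNA pool, these 4 differences rest on 2 pairs of pools.

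**Figure D2:**
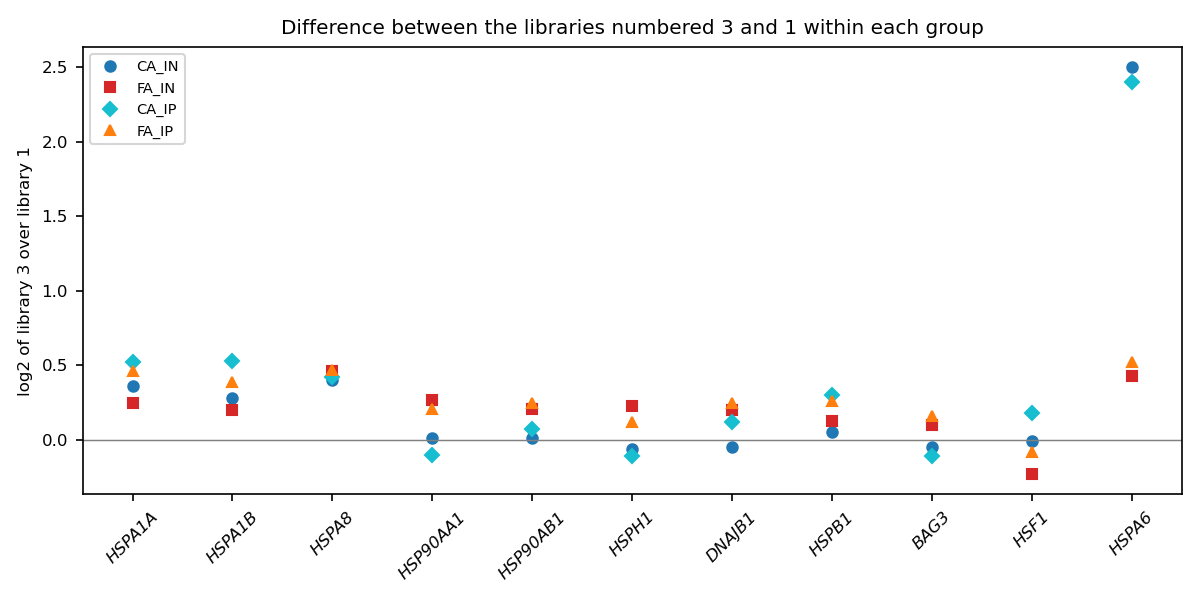
Log2 ratio of library 3 over library 1 (vertical axis) for the 10 genes and HSPA6 (horizontal axis), 1 point for each of the 4 groups. HSPA8 sits between 0.40 and 0.47 in all 4 groups, and HSPA6 sits at 2.50 and 2.40 in the clean-air groups and at 0.43 and 0.52 in the formaldehyde groups.

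The next comparisons asked which transcripts the antibody recovered more or less of than the input, separately in clean air and in formaldehyde. Values here are relative to the typical gene: scaling by library size in place of TMM moved the median of all genes from 0.02 to 0.16 in clean air and from 0.00 to 0.17 in formaldehyde, and it turned the split of called genes in clean air from 27 higher and 322 lower to 821 higher and 336 lower, and in formaldehyde from 6 higher and 268 lower to 318 higher and 243 lower. TPM were not used across input and IP, because the median gene was higher by 0.94 (clean air) and 0.88 (formaldehyde) on the log2 TPM scale in IP. In CA_IP against CA_IN, none of the 10 genes was called by edgeR without a block, against 349 of 18242 genes (1.91%), and 3 had an unadjusted p under 0.05. DESeq2 also called none. With the shared RNA pool as a block, edgeR called 7 of the 10, 6 higher and 1 lower, against 3179 genes (17.4%), 2112 higher and 1067 lower. In FA_IP against FA_IN, none was called by edgeR without a block, against 274 genes (1.5%), and only HSPB1 had an unadjusted p under 0.05. HSPB1 was called lower by DESeq2 on all 8 libraries (adjusted p = 0.0487, with a range over alternatives given with its values). With the pool as a block edgeR called 4 of the 10, 3 higher and 1 lower, against 1835 genes (10.1%), 995 higher and 840 lower. In both exposures HSPA1A and HSPA1B, which most single reads cannot tell apart, count as 2 of the higher genes. The median log2 fold change of the 10 was 0.19 in clean air and 0.15 in formaldehyde, beside 0.02 and 0.00 over all genes. For the 10 genes below, the log2 fold changes and SEs of IP against input are those of the fit without a block. With the pool as a block their SEs were 0.055 to 0.081 in clean air and 0.055 to 0.08 in formaldehyde.

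HSPB1 was the one gene of the 10 that lay below its input in all 4 pools. It was at 26.0 and 32.0 CPM in CA_IP against 39.6 and 41.0 CPM in CA_IN, and at 33.9 and 40.5 CPM in FA_IP against 51.0 and 55.9 CPM in FA_IN. The groups did not overlap in either exposure, and 17.5% of all genes were lower in all 4 pools. The log2 fold change was -0.48 ± 0.14 in clean air (SE, adjusted p = 0.157 without and 0.000191 with the pool as a block, edgeR) and -0.52 ± 0.14 in formaldehyde (SE, adjusted p = 0.164 and 6.93e-05, edgeR). Over 20 alternatives the adjusted p ranged from 0.000191 to 0.597 in clean air and from 6.93e-05 to 0.821 in formaldehyde. On the TPM scale HSPB1 was higher in IP than in input, by 0.41 and 0.32 on the log2 scale, less than the median gene. Its main transcript was the shortest of the 10, at 909 nt beside a median of 2578 nt over all genes tested, and the part of length in the result was not tested.

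Above their input in all 4 pools lay 7 of the 10 genes (HSPA1A, HSPA1B, HSPA8, HSP90AB1, DNAJB1, BAG3 and HSF1), beside 23.4% of all genes. HSPA1A was at 557.4 and 798.9 CPM in CA_IP and at 643.4 and 882.3 CPM in FA_IP, against 431.5 and 554.6 CPM in CA_IN and 552.9 and 656.1 CPM in FA_IN. Its groups overlapped in formaldehyde and were barely separate in clean air, while within each pool the IP library was higher by 0.22 to 0.53 on the log2 scale. The log2 fold change of HSPA1A was 0.46 ± 0.21 in clean air (SE, adjusted p = 0.418 without and 2.92e-05 with the pool as a block, edgeR) and 0.34 ± 0.21 in formaldehyde (SE, adjusted p = 0.773 and 0.00168, edgeR). For HSPA1B it was 0.47 ± 0.19 (SE, adjusted p = 0.355 and 4.99e-05, edgeR) and 0.29 ± 0.19 (SE, adjusted p = 0.796 and 0.00742, edgeR). As 1 feature without a block, the pair had 0.46 ± 0.20 in clean air (SE, adjusted p = 0.384, edgeR) and 0.32 ± 0.20 in formaldehyde (SE, adjusted p = 0.781, edgeR). HSPA1A and HSPA1B also had the highest guanine share of the 10 main transcripts, 31.2% and 31.0%, beside a median of 24.7%. HSF1 had 29.3%, and HSPB1, which lay below its input in all 4 pools, had 28.2%. HSPA8, above its input in all 4 pools, had 23.7%. The part of guanine share in the result was not tested.

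HSPA8 was at 2792 and 3725 CPM in CA_IP and at 2840 and 3932 CPM in FA_IP. Each IP library was above its own input by 0.18 to 0.21 on the log2 scale, less than the 0.40 to 0.47 between library numbers. The log2 fold change was 0.20 ± 0.22 in clean air (SE, adjusted p = 0.798 without and 0.014 with the block, edgeR) and 0.19 ± 0.22 in formaldehyde (SE, adjusted p = 0.945 and 0.0282, edgeR). Without a block it ran from -0.02 to 0.40 and from -0.04 to 0.46 when single libraries were left out.

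HSF1, HSP90AB1 and DNAJB1 passed with the pool as a block in clean air only, and the difference between the exposures was not called for any of them. HSF1 was at 54.4 and 61.8 CPM in CA_IP and at 62.5 and 59.3 CPM in FA_IP, with log2 fold changes of 0.35 ± 0.11 (SE, adjusted p = 0.219 without and 0.00245 with the block, edgeR) and 0.19 ± 0.11 (SE, adjusted p = 0.745 and 0.115, edgeR). HSP90AB1 was at 1897 and 1992 CPM in CA_IP against 1720 and 1734 CPM in CA_IN, with a log2 fold change of 0.17 ± 0.11 (SE, adjusted p = 0.607 and 0.04, edgeR). DNAJB1 was at 117.9 and 128.1 CPM in CA_IP against 106.7 and 103.1 CPM in CA_IN, with 0.23 ± 0.11 (SE, adjusted p = 0.457 and 0.0203, edgeR). BAG3 was not called in any fit, with log2 fold changes of 0.15 ± 0.11 and 0.08 ± 0.11 (SE). HSP90AA1 and HSPH1 lay within 0.04 of 0 in both exposures, and with library-size scaling both lay 0.11 to 0.18 above 0.

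**Figure D3:**
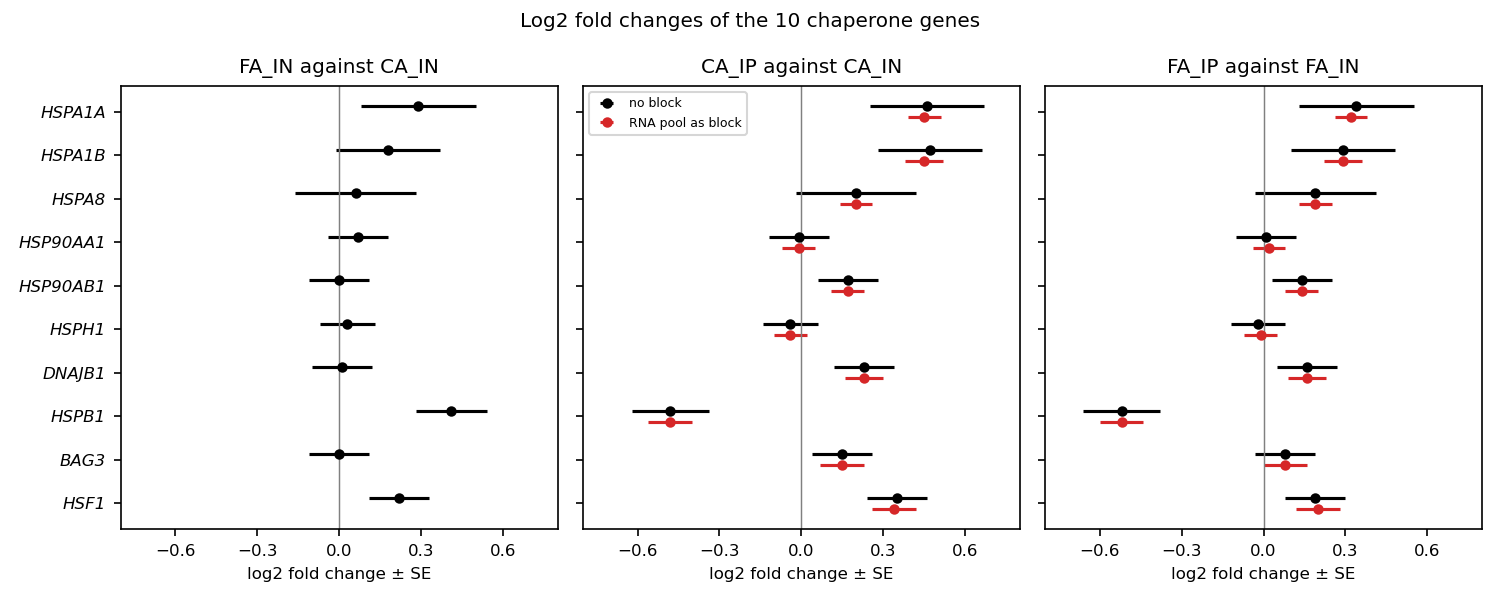
Log2 fold change with its SE (horizontal axis) of the 10 genes (vertical axis) for input after formaldehyde against clean air and for IP against input in each exposure. Black is without a block, and red, in the IP panels only, is with the RNA pool as a block. HSPB1 lies at -0.48 and -0.52 in the IP panels, HSPA1A at 0.46 and 0.34, and the red error bars are shorter than the black ones.

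Whether IP against input differed between the exposures was tested as an interaction. None of the 10 genes was called by edgeR without a block or with the pool as a block, none by DESeq2, and none had an unadjusted p under 0.05. Across all genes 0 of 18242 were called without a block (0%), with 195 at an unadjusted p under 0.05, and 25 with the pool as a block (0.137%). The interaction on the log2 scale lay between -0.17 (HSPA1B, ± 0.27, SE) and 0.02 (HSP90AA1, ± 0.16, and HSPH1, ± 0.14, SE). For HSPB1 it was -0.05 ± 0.19 (SE) and for HSPA8 -0.01 ± 0.31 (SE).

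Of the 67 other chaperone genes tested, 1 was called in CA_IP against CA_IN without a block, with 19 at an unadjusted p under 0.05, and none in FA_IP against FA_IN, with 11. Over all 18242 genes, 2294 and 1660 had an unadjusted p under 0.05. The median log2 fold changes of the 67 were 0.10 and 0.12. The called gene was CDC37, the HSP90 co-chaperone that brings kinases to HSP90. It was at 215.9 and 193.0 CPM in CA_IN and at 278.5 and 278.8 CPM in CA_IP, a log2 fold change of 0.45 ± 0.09 (SE, adjusted p = 0.0406, edgeR, with a range from 3.33e-05 to 0.414 over 20 alternatives). The call was lost when any 1 of the 8 libraries was left out. With the pool as a block, 22 of the 67 were higher and 4 lower in clean air, and 11 higher and 3 lower in formaldehyde. Of all 18242 genes, 2112 were higher and 1067 lower in clean air, and 995 higher and 840 lower in formaldehyde. Among the HSP90 co-chaperones 5 of 11 were higher in clean air (CDC37, UNC45A, STIP1, AHSA1 and FKBP4) and none was lower. In formaldehyde 2 of the 11 were higher (CDC37 and FKBP4) and none was lower. The median log2 fold change of this list without a block was 0.05 in clean air and 0.09 in formaldehyde. Among the HSP70 co-chaperones STUB1 (the ubiquitin ligase CHIP), SGTA and HSPBP1 were higher in both exposures, and BAG2 was lower in clean air (-0.23 ± 0.08, SE, adjusted p = 0.046, edgeR). Lower in both were HSPE1, the mitochondrial HSP10, PFDN4, a prefoldin subunit, and HSBP1, which binds HSF1.

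**Figure D4:**
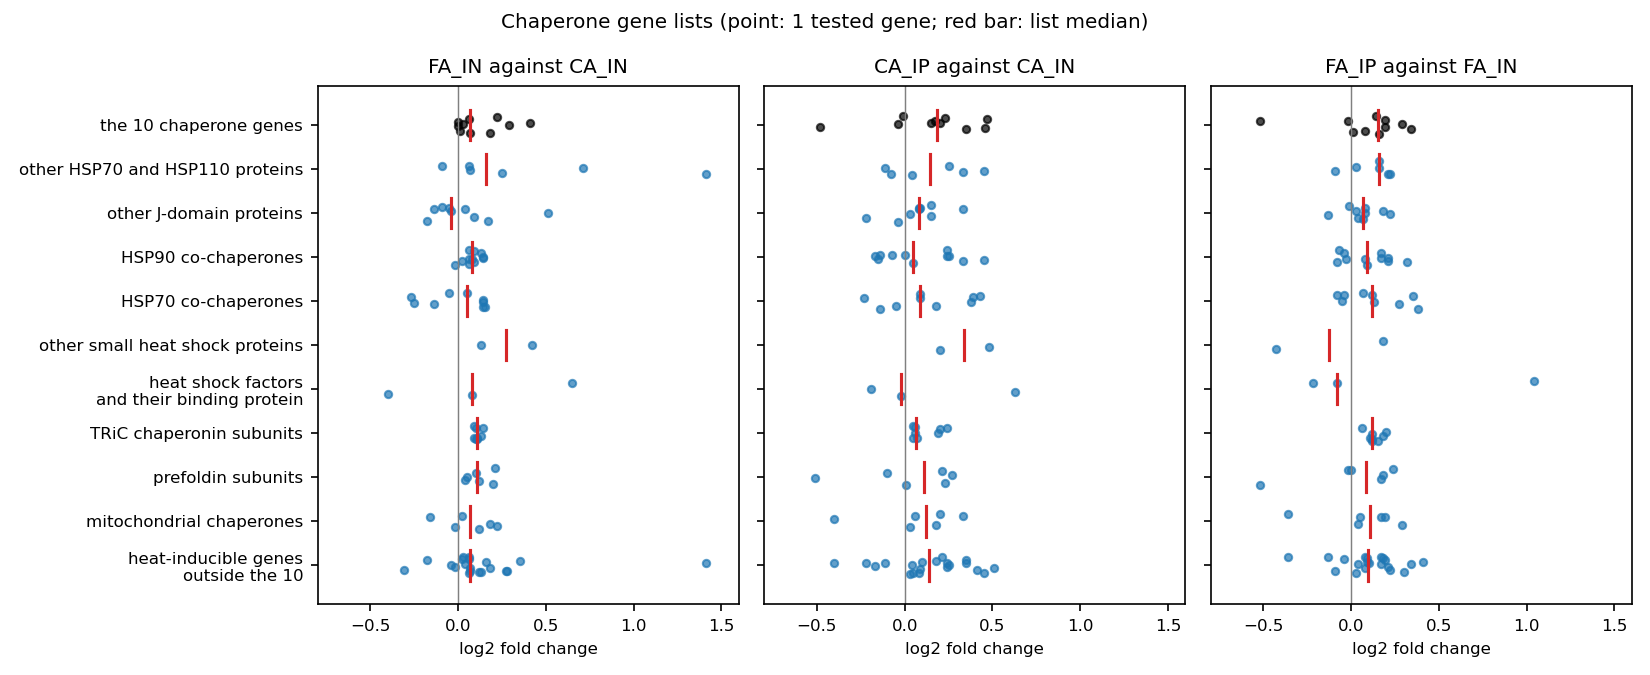
Log2 fold change without a block (horizontal axis) of every tested gene in each chaperone list (vertical axis, 1 point per gene, red bars for list medians) in 3 comparisons. The point at 1.41 after formaldehyde is HSPA6, which stands in both HSP70 and heat-inducible lists, and the list of 10 has medians of 0.07, 0.19 and 0.15.

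The isoforms were tested on the whole transcript table. Of the 80 transcripts of the 10 genes, 59 were among the 67873 tested. None was called in any comparison by edgeR, with 3, 2, 3 and 0 at an unadjusted p under 0.05 in FA_IN against CA_IN, CA_IP against CA_IN, FA_IP against FA_IN and the interaction, and none by DESeq2. The shares of all transcripts called were 0%, 0.242%, 0.144% and 0%. A single isoform held most of the count of 9 genes, from 65.1% to 76.6% for HSF1 and from 75.9% to 78.8% for HSPA8 to all of HSPA1B. HSPH1 was the exception, with 27.3% to 35.4% in its main isoform ENST00000380405 and most of the rest in ENST00000602786, annotated as subject to nonsense-mediated decay, and ENST00000630972. Transcripts annotated with a retained intron took 14.2% to 24.0% of the HSF1 count. In the input this share was 24.0% and 22.0% in clean air and 22.1% and 19.9% in formaldehyde, so the groups overlapped. The isoform with the lowest unadjusted p in the input was HSP90AB1 transcript ENST00000371554. It was at 10.7 and 10.6 CPM in CA_IN and at 15.1 and 23.9 CPM in FA_IN, groups that did not overlap, with a log2 fold change of 0.88 ± 0.25 (SE, unadjusted p = 0.0126, adjusted p = 1.0, edgeR), and it held 365.6 to 802.4 expected counts in input beside 37817.9 to 74023.6 for the main isoform of that gene.

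The nearest gene outside the 10 lay at a distance of 0.0675 to 0.277 from each member. The 3 smallest distances in pattern, by Euclidean distance over the 8 libraries of log2 CPM centred on each gene's mean, were those of FGFRL1 to HSF1 (0.0675), GABPA to HSPH1 (0.0758) and HMGB3 to BAG3 (0.0783). The median distances of these members to all genes were 0.791, 0.671 and 0.643. Among the 10, HSP90AB1 and DNAJB1 were closest to each other (0.0838), and the nearest member to HSPB1 was HSP90AA1 at 0.891.

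The cell identity was checked by markers. The 6 keratins listed for this line were present at 95.0 TPM or more in every library. Of 12 markers of other cell types, 7 (PTPRC, CD3E, VWF, DCN, MUC5AC, SCGB1A1 and FOXJ1) had at most 7.0 expected counts in any library. PECAM1 had 9.0 to 26.0 and CDH5 3.0 to 15.0, and the rest were higher: CD68 had 74.1 to 379.0, COL1A1 159.0 to 361.0 and ACTA2 35.3 to 108.2. The summed level of these 12 was 2.92 to 4.34 TPM in input and 6.77 to 8.17 TPM in IP. The keratins were higher in IP than in input, by a median log2 fold change of 0.45 in clean air and 0.38 in formaldehyde without a block, and KRT8 was called in clean air (0.41 ± 0.08, SE, adjusted p = 0.0347, edgeR). The part of this in the results for the chaperone genes was not tested.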

How the data were processed

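The study measured input and 8-oxoG-immunoprecipitated RNA of BEAS-2B cells in 8 paired-end libraries. Per the submitters' processing notes and the study's methods, the authors trimmed reads with cutadapt, aligned them with STAR 2.6.0a to GRCh38 with Ensembl annotation and estimated isoform levels with RSEM 1.2.25, giving deposited expected counts and deposited TPM per transcript. No strand setting is stated, so reads of overlapping antisense genes cannot be told apart. Deposited tables of fold changes and p-values from DESeq2 in R 3.5.0 were not used. The labels name clone 15A3 in one field and 2E2 in the protocol for the antibody.

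Expected counts were summed to genes, rounded and filtered (at least 10 in at least 2 libraries). edgeR 4.0.16 (R 4.3.3; TMM, quasi-likelihood F test, prior count 0.125) was fitted to the 4 group means over all 8 libraries, and Benjamini-Hochberg adjustment ran over all 18242 genes or 67873 transcripts, with a limit of 0.05. Symbols came from GENCODE 44 for 41937 of 58735 gene IDs. The SE of each edgeR log2 fold change was its absolute value divided by the square root of F. It therefore rests on the spread estimated over all libraries of a fit and not on 1 comparison alone. The common dispersion of 0.019 was a coefficient of variation of 0.138. Library totals were 16883500 to 45144392 expected counts. The fit without a block was also run on simulated data with known changes. These were larger than any change of the 10 genes and had no pool or replicate effect, so the run does not cover such cases. DESeq2 1.42.0 and other scalings, filters, blocks and left-out libraries were alternatives.

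Replicate numbers 1 and 3 come from the names of the deposited tables. Since the study divided each rRNA-depleted pool into input and IP fractions, same-numbered input and IP libraries are paired by RNA pool, and the fit with the pool as a block is given beside the results it changed. The difference between libraries 3 and 1, over 10550 genes, correlated between CA_IN and CA_IP (r = 0.777) and between FA_IN and FA_IP (r = 0.656). Between exposures the same correlation was 0.452 to 0.599. The study ran its clean-air and formaldehyde chambers in parallel on several dates, but no source used here states that a number marks a date, so the fit with the number as a block is given as an alternative.

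The 10 genes and the lists were chosen with earlier results of these data known. All 10 are named in every comparison. Of the other lists, genes past an adjusted p of 0.05 are named, at most 2 per direction, or up to 2 of the highest level where none passed. HSPA6, CRYAB, HSPB3, genes called only with a block, isoforms other than the main one and the difference between libraries 3 and 1 were named after their values were seen.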

Additional observations from a re-analysis of the deposited data

How the results depend on the processing

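Leaving out any 1 of the 8 libraries left 0 of the 10 genes and 0 of their isoforms called in every comparison, and each isoform count stayed at 0 under all alternatives run. The gene counts moved with the block. With the replicate block by number, 1 of the 10 (HSPB1, higher by 0.40, adjusted p = 0.0373, edgeR) was called in FA_IN against CA_IN, 2 in FA_IP against FA_IN and 5 in CA_IP against CA_IN, and all-gene counts were 258, 953, 1941 and, for the interaction, 3. Whether the number marks a shared exposure run is not stated, and the differences between libraries 3 and 1 correlated at r = 0.568 between CA_IN and FA_IN. With the replicate block by RNA pool the 10 gave 4 and 7 calls and all genes 1835, 3179 and 25. Library-size scaling called 1 of the 10 (HSF1) in CA_IP against CA_IN, with 561 and 1157 genes in the FA and CA pull-downs. With no filter on low counts, 1 and 3 of the 10 were called in the FA and CA pull-downs and all-gene counts were 100, 578, 686 and 52. DESeq2 on all 8 libraries called 1 of the 10 (HSPB1) in FA_IP against FA_IN and 3 genes each in the formaldehyde and interaction comparisons. Within the 4 libraries of the formaldehyde comparison, edgeR called 0 genes and DESeq2 3. Leaving out single libraries gave 0 to 1, 121 to 282, 194 to 318 and 0 to 5 genes over the 4 comparisons, the lowest pull-down counts being without FA_IN library 1 and without CA_IP library 1. The causes were not tested.

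No value that changed sign was called in the fit without a block, and of 766 alternative values of the 10 genes 71 changed sign. With single libraries left out, log2 fold changes in FA_IN against CA_IN ran from -0.21 to 0.27 (HSPA8), -0.09 to 0.19 (HSP90AA1), -0.14 to 0.09 (HSP90AB1), -0.11 to 0.13 (HSPH1), -0.12 to 0.09 (DNAJB1) and -0.07 to 0.04 (BAG3). In FA_IP against FA_IN they ran from -0.04 to 0.46 (HSPA8), -0.11 to 0.17 (HSP90AA1), -0.12 to 0.12 (HSPH1) and -0.04 to 0.47 (HSPA6). In CA_IP against CA_IN they ran from -0.02 to 0.40 (HSPA8), -0.06 to 0.04 (HSP90AA1), -0.10 to 0.02 (HSPH1) and -1.20 to 2.19 (HSPA6). In the interaction they ran from -0.36 to 0.16 (HSPA1A), -0.41 to 0.12 (HSPA1B), -0.22 to 0.28 (HSPA8), -0.08 to 0.20 (HSP90AA1), -0.12 to 0.12 (HSP90AB1), -0.06 to 0.18 (HSPH1), -0.16 to 0.08 (DNAJB1), -0.19 to 0.11 (HSPB1), -0.13 to 0.02 (BAG3) and -1.96 to 1.42 (HSPA6). Under library-size scaling the formaldehyde values of HSPH1, DNAJB1 and BAG3 became -0.01, -0.03 and -0.04, the pull-down values of HSPH1 0.15 and 0.11, that of HSP90AA1 in clean air 0.14, and the interaction of HSPA8 0.01. Under the other filters, DESeq2, the 4-library fits and the sums with pseudogenes, the formaldehyde values that changed sign were 0.00 (HSP90AB1), -0.01 (DNAJB1) and -0.01 to -0.02 (BAG3), that of HSP90AA1 in FA_IP against FA_IN was 0.00, and interactions were 0.01 to 0.02 (HSPA8) and 0.01 (HSP90AB1).

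With 2 libraries per group, the SEs on the log2 scale for the 10 genes limit the precision. Without a block they were 0.10 to 0.22 between 2 groups and 0.14 to 0.31 for the interaction. With the RNA pool as a block they were 0.055 to 0.081 for IP against input in clean air and 0.055 to 0.08 in formaldehyde.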
